A study of Mus musculus with 20 samples.

Results

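The muscle ubiquitin ligase genes of atrophy and the FOXO transcription factor genes were followed in mouse quadriceps, 10 genes of the 17415 listed in the deposited expression table. They were chosen by gene symbol: Trim63, Fbxo32, Fbxo30, Fbxo31, Fbxo40, Foxo1, Foxo3, Foxo4, Klf15 and Gadd45a. RNA-seq had been run on 20 quadriceps libraries, 5 in each of 4 groups, 7 days after the anterior cruciate ligament was transected (ACLT). Mice received a placebo antibody (PLA Ab, REGN1945) or a human monoclonal antibody against GDF8, also called myostatin (GDF8 Ab, REGN647), each injected under the skin at 10 mg/kg, and the transected limb and its uninjured opposite (control) limb were both sequenced. The transection was made in 1 limb of each mouse, tissue was not pooled, mice of both sexes were 4 to 5 months old, and C57BL/6J and Col1-eGFP mice were given the antibodies. The labels of these libraries give neither strain nor sex, and no uninjured mouse was among the libraries, so every control limb came from a mouse with a transected ligament in the other knee.

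Muscle wastes when proteins are marked with ubiquitin chains and degraded by the proteasome, and E3 ligases choose the proteins to be marked. Trim63 (MuRF1) and Fbxo32 (atrogin-1) are the ligase genes best known for rising in wasting muscle, where unphosphorylated FOXO factors enter the nucleus and bind their promoters. Insulin-like growth factor acts through AKT to hold FOXO factors in the cytoplasm, while glucocorticoids and their target Klf15 raise the same ligases, and GDF8 signals through SMAD2/3 and lowers AKT activity.

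The promoter of Trim63 is shown because it carries a FOXO element and a glucocorticoid element side by side. RefSeq promoters on GRCm38.p6, running from 250 bases before to 50 bases after the start of the gene, were listed for 8 of the 10 genes. Fbxo32 and Foxo4 had no entry, so their promoters were not searched. The sequence below lies on the forward strand at chr4:134314870-134315169, with a palindromic glucocorticoid response element (GAACA and TGTTC around 3 free bases) and a FOXO element (GTAAACA, here as its reverse complement) in capitals.
Trim63 promoter: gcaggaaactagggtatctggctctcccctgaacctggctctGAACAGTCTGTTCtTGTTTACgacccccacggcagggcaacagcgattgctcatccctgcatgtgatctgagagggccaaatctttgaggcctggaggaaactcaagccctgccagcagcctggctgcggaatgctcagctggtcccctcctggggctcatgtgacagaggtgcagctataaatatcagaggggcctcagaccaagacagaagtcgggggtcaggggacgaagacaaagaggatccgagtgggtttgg
The run of elements reached from 208 to 188 bases before the start, with 1 base between the elements, which did not overlap. Searched on both strands, the FOXO element occurred in 3.65% of all 32851 promoters of this length and the glucocorticoid element in 0.0578% of them. Among the promoters of the 8 listed genes each occurred only in Trim63. These matches describe letters in this window and not binding.

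Levels are given in CPM, a gene's counts scaled to a library total of 1e+06. The fewest reads behind a value of the 10 genes were about 195 (Fbxo30 in PLA Ab control library 4). Skeletal muscle fibre markers summed to 119414 to 218190 CPM, so that all 20 libraries carried the labelled tissue. PLA Ab ACLT libraries 4 and 5 stood apart: they had the lowest muscle marker sums (139393 and 119414 CPM), the highest macrophage and monocyte marker sums (1740 and 2738 CPM, against 364 to 752 in the other 3 libraries of the group and 38.2 to 119 in PLA Ab control limbs) and the highest fibroblast marker sums (16196 and 21091 CPM). All 14 macrophage and 11 fibroblast markers were detected in each group. In bulk muscle, fewer cells of a type and less RNA per cell cannot be told apart. Both limbs of PLA Ab mice 1 and 3 and GDF8 Ab mouse 3 expressed Y-linked genes (6 libraries) and the other 14 libraries did not. Of the PLA Ab ACLT group, those 14 hold only libraries 2, 4 and 5, among them the libraries that stood apart. Results in the 14 libraries and results without libraries 4 and 5 are therefore not separate checks. These libraries and mouse numbers return beside the results they touch.

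Genes that reached 10 CPM in 5 or more libraries were tested with limma on log2(CPM + 1), and all 10 genes passed this filter. A gene was called when its p, adjusted over all 7937 tested genes by Benjamini-Hochberg, was under 0.05. Fold changes on this scale slightly understate those of low genes. The labels number the libraries 1 to 5 in each group, and limbs with the same number and antibody were taken as those of 1 mouse, so values are also given with a random effect of mouse (the mouse block) where that changed a call.

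None of the 10 genes was called in any of the 5 comparisons. Between ACLT and control limbs of PLA Ab mice 0 of 10 were called where 20.2% of all tested genes were, and 3 had an unadjusted p under 0.05. Between the limbs of GDF8 Ab mice 0 of 10 were called, against 0.0252% of tested genes. In ACLT limbs, GDF8 Ab against PLA Ab, 0 of 10 were called against 6.7%. In control limbs, and for the interaction of antibody and injury, 0 of 10 were called and 0% of all tested genes, with 630 and 940 genes at an unadjusted p under 0.05. Log2 fold changes after ACLT under PLA Ab ran from -0.47 (Klf15) to 0.51 (Gadd45a) with a median of 0.07, beside a median of 0.12 over all tested genes. Under GDF8 Ab they ran from -0.17 (Fbxo32) to 0.10 (Foxo4), and the 95% intervals of all 10 lay between -0.71 and 0.59. The comparisons share groups: PLA Ab ACLT limbs stand in the first and the third. Without PLA Ab ACLT libraries 4 and 5 the calls over all tested genes went from 1471 up and 132 down to 237 up and 6 down after ACLT under PLA Ab, and from 532 to 2 between antibodies in ACLT limbs. Among the 14 libraries without Y-linked expression, 3622 tested genes were called between antibodies in ACLT limbs and 1329 for the interaction.

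**Figure D1:**
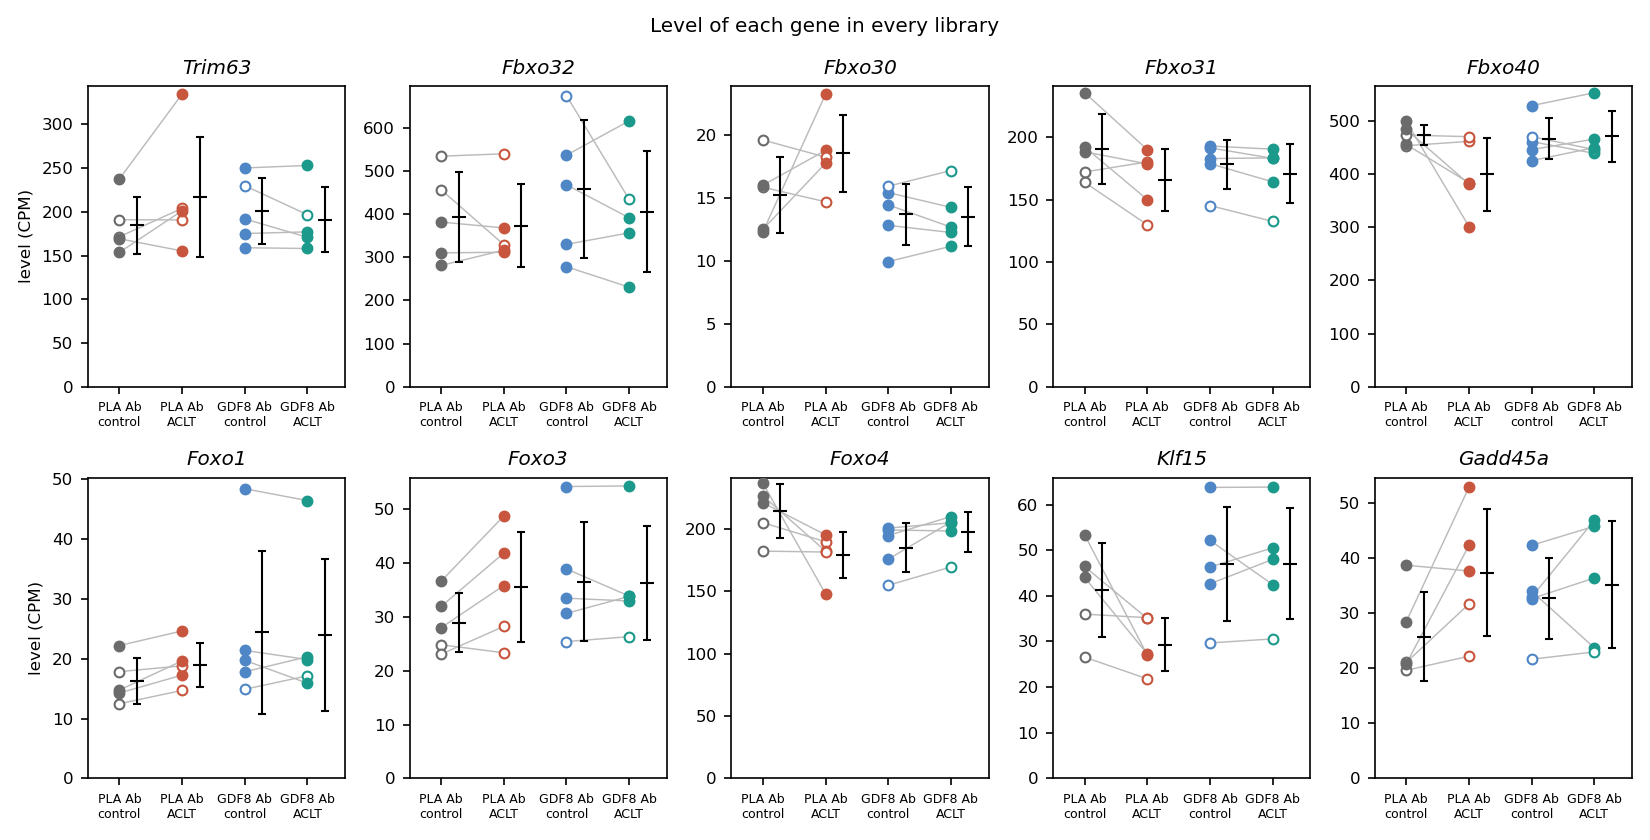
Level of each of the 10 genes in CPM (vertical axes, from 0) in the 4 groups of 5 libraries. Lines join the limbs of one mouse, open points are the 6 libraries with Y-linked expression, and black bars give the mean and SD. Groups overlapped for every gene, and GDF8 Ab mouse 2 sat highest in both limbs for Foxo1 (48.4 and 46.4 CPM).

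In the fit blocked by mouse, Fbxo40, Foxo4 and Klf15 were called lower in the ACLT limb of PLA Ab mice, 3 of 10, where 31.9% of tested genes were called in either direction and 4.47% were called lower. No other comparison gained a call with the block. The 3 calls were lost on leaving out both limbs of PLA Ab mouse 2, 4 or 5. Without mouse 5 the log2 fold changes shrank to -0.14 for Fbxo40 (adjusted p = 0.243), -0.15 for Foxo4 (adjusted p = 0.208) and -0.34 for Klf15 (adjusted p = 0.24). Without mouse 4 they were -0.24, -0.28 and -0.41 (adjusted p = 0.12, 0.0557 and 0.15), and without mouse 2 they stayed at -0.26, -0.24 and -0.48 (adjusted p = 0.0622, 0.0596 and 0.0649). Left out in turn, mice 1 and 3, the PLA Ab mice with Y-linked expression, kept all 3 called (adjusted p 0.0118 to 0.0386).

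Among the ligases, Trim63 encodes the RING ligase of the sarcomere that ubiquitinates myosin heavy chain, and lies at chr4:134042431-134056941 in the table's coordinates. In PLA Ab mice 1 to 5 its level was 172, 169, 191, 154 and 238 CPM in control limbs and 204, 155, 191, 201 and 335 CPM in ACLT limbs. In GDF8 Ab mice it was 192, 250.3, 230.1, 159 and 175 CPM in control limbs and 171, 253, 197, 158 and 177 CPM in ACLT limbs. PLA Ab ACLT library 5 was the highest of all 20 libraries, and the other libraries of that group lay among the control limbs. The mean was 185 ± 32.4 CPM in PLA Ab control and 217 ± 68.5 CPM in PLA Ab ACLT limbs (SD, n = 5 each), a log2 fold change of 0.20 (SE 0.18, 95% interval -0.17 to 0.57, limma adjusted p = 0.427). Without PLA Ab ACLT libraries 4 and 5 it was -0.0026. The difference under GDF8 Ab was -0.07 (95% interval -0.45 to 0.30). Between antibodies in ACLT limbs it was -0.15 (95% interval -0.53 to 0.22, adjusted p = 0.547), and in control limbs 0.12 (95% interval -0.25 to 0.49).

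Fbxo32 encodes an F-box protein that brings MyoD and eIF3f to the SCF ligase and lies at chr15:58039275-58078329. In PLA Ab mice it was at 457, 382, 534, 310.2 and 281 CPM in control limbs and at 329, 368, 539.7, 312 and 316 CPM in ACLT limbs. In GDF8 Ab mice it was at 468, 537, 674, 329.9 and 278 CPM in control limbs and at 391, 616, 434, 357 and 231 CPM in ACLT limbs. The limbs of a mouse tended to lie together, and mouse 3 of each antibody and GDF8 Ab mouse 2 were high in both. The log2 fold change after ACLT was -0.07 under PLA Ab (SE 0.26, 95% interval -0.61 to 0.48, adjusted p = 0.872) and -0.17 under GDF8 Ab (95% interval -0.71 to 0.37), with the ACLT limb lower in 2 of 5 and in 3 of 5 mice. Between antibodies it was 0.08 in ACLT limbs (95% interval -0.46 to 0.62) and 0.19 in control limbs (95% interval -0.35 to 0.73). The sign after ACLT under PLA Ab turned with the muscle markers as the scale (0.12) and without PLA Ab ACLT libraries 4 and 5 (0.08), so no direction is given for this gene.

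Fbxo40 encodes a muscle F-box protein that targets IRS1 for degradation after IGF1 stimulation (chr16:36783822-36810830). In PLA Ab mice 1 to 5 it was at 453, 455, 473, 483 and 498 CPM in control limbs and at 461, 383, 469.7, 381 and 301 CPM in ACLT limbs. In GDF8 Ab mice it was at 528, 460.5, 469.7, 446 and 425 CPM in control limbs and at 552, 438, 446, 465 and 449 CPM in ACLT limbs. PLA Ab control limbs were close together (coefficient of variation 4.07%), and ACLT libraries 2, 4 and 5 lay below all of them while libraries 1 and 3 lay among them. Under PLA Ab the control limbs averaged 472 ± 19.2 CPM and the ACLT limbs 399 ± 69.0 CPM (SD, n = 5 each). The log2 fold change was -0.26 (SE 0.10, 95% interval -0.47 to -0.05, adjusted p = 0.0751), and the mouse block brought the adjusted p to 0.0352. The value moved both ways with the scale, to -0.08 relative to the muscle markers (adjusted p = 0.712) and to -0.41 with median-of-ratios scaling (adjusted p = 0.0419). Among the 14 libraries without Y-linked expression, which keep only libraries 2, 4 and 5 of PLA Ab ACLT, it was -0.44 (adjusted p = 0.0112). Without PLA Ab ACLT libraries 4 and 5 it was -0.11 (adjusted p = 0.61). Leaving out PLA Ab ACLT library 1 or 3 brought the adjusted p to 0.0246 or 0.0229.

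In ACLT limbs Fbxo40 averaged 470.1 ± 47.0 CPM under GDF8 Ab (SD, n = 5), a log2 difference of 0.25 from PLA Ab (SE 0.10, 95% interval 0.03 to 0.46, adjusted p = 0.0995), and of 0.10 without PLA Ab ACLT libraries 4 and 5. That difference was called without PLA Ab ACLT library 1 (adjusted p = 0.0318) or 3 (adjusted p = 0.0327) and among the 14 libraries without Y-linked expression (0.43, adjusted p = 0.00808). It was -0.03 relative to the muscle markers and 0.40 with median-of-ratios scaling (adjusted p = 0.0771). In control limbs it was -0.02 (95% interval -0.24 to 0.19).

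Fbxo30 encodes MUSA1, a ligase subunit repressed by BMP and SMAD1/5/8 signalling in muscle (chr10:11157074-11173797). In PLA Ab mice it was at 15.9, 16.01, 19.6, 12.5 and 12.3 CPM in control limbs and at 14.7, 18.8, 18.3, 17.8 and 23.2 CPM in ACLT limbs. In GDF8 Ab mice it was at 15.4, 9.95, 15.9, 12.8 and 14.5 CPM in control limbs and at 14.3, 11.2, 17.2, 12.3 and 12.7 CPM in ACLT limbs. In ACLT limbs, 4 of 5 GDF8 Ab libraries lay below all 5 PLA Ab libraries, with GDF8 Ab ACLT library 3 among them. The log2 difference there was -0.43 (SE 0.15, 95% interval -0.74 to -0.12, adjusted p = 0.0639), and after ACLT under PLA Ab it was 0.27 (95% interval -0.04 to 0.58, adjusted p = 0.194). The first was called without PLA Ab ACLT library 1 (-0.51, adjusted p = 0.0181), and among the 14 libraries without Y-linked expression both were called (-0.62, adjusted p = 0.00521, and 0.52, adjusted p = 0.021). Those 14 keep only libraries 2, 4 and 5 of PLA Ab ACLT. Without PLA Ab ACLT libraries 4 and 5 the differences were -0.34 (adjusted p = 0.616) and 0.18 (adjusted p = 0.67). With median-of-ratios scaling they were -0.28 (adjusted p = 0.173) and 0.13 (adjusted p = 0.509). Under GDF8 Ab the difference after ACLT was -0.02 (95% interval -0.33 to 0.30).

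Fbxo31, an SCF subunit that acts on cyclin D1 after DNA damage (chr8:122276179-122305546), ranged from 129.9 CPM (PLA Ab ACLT library 1) to 236 CPM (PLA Ab control library 5) and its groups overlapped in each comparison. After ACLT its log2 fold change was -0.20 under PLA Ab (95% interval -0.46 to 0.06, adjusted p = 0.245) and -0.07 under GDF8 Ab, with 4 of 5 mice lower in the ACLT limb under each antibody. Scaling by the median of ratios, which moved the median of all genes from 0.12 to -0.03, brought its value under PLA Ab to -0.35 (adjusted p = 0.0273), and relative to the muscle markers it was -0.02. Between antibodies it was 0.04 in ACLT limbs (95% interval -0.22 to 0.30) and -0.09 in control limbs (95% interval -0.35 to 0.17).

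Of the FOXO genes, Foxo1 (chr3:52175757-52260643) encodes the factor that drives Trim63 and Fbxo32 when overexpressed in mouse muscle. Under PLA Ab it was at 12.5, 14.3, 17.8, 14.8 and 22.2 CPM in control limbs and at 14.7, 17.3, 18.8, 19.6 and 24.6 CPM in ACLT limbs. Under GDF8 Ab it was at 17.8, 48.4, 14.9, 21.4 and 19.7 CPM in control limbs and at 20.3, 46.4, 17.1, 19.9 and 15.9 CPM in ACLT limbs. The groups overlapped, the ACLT limb was the higher in 5 of 5 PLA Ab mice and 2 of 5 GDF8 Ab mice, and GDF8 Ab mouse 2 was above all other mice in both limbs. The log2 fold change after ACLT was 0.22 under PLA Ab (SE 0.28, 95% interval -0.37 to 0.80, adjusted p = 0.596) and -0.02 under GDF8 Ab (95% interval -0.60 to 0.57). In control limbs GDF8 Ab exceeded PLA Ab by 0.46 (95% interval -0.13 to 1.04, adjusted p = 0.76), and without mouse 2 by 0.18 (adjusted p = 0.892). In ACLT limbs the difference was 0.22 (95% interval -0.37 to 0.81), and -0.04 without mouse 2.

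Foxo3 (chr10:42057837-42152752), which drives Fbxo32 and autophagy genes in mouse muscle, was at 24.8, 27.99, 23.1, 31.9 and 36.6 CPM in PLA Ab control limbs and at 23.3, 35.8, 28.2, 41.9 and 48.8 CPM in PLA Ab ACLT limbs. It was at 30.7, 54.2, 25.4, 33.5 and 38.9 CPM in GDF8 Ab control limbs and at 33.8, 54.4, 26.3, 33.0 and 33.9 CPM in GDF8 Ab ACLT limbs. Groups overlapped, with PLA Ab ACLT libraries 4 and 5 above their group's control limbs. The log2 fold change after ACLT was 0.26 under PLA Ab (SE 0.22, 95% interval -0.19 to 0.72, adjusted p = 0.383), 0.01 without PLA Ab ACLT libraries 4 and 5, and -0.01 under GDF8 Ab (95% interval -0.46 to 0.45). Between antibodies it was 0.03 in ACLT limbs (95% interval -0.42 to 0.48) and 0.30 in control limbs (95% interval -0.15 to 0.75).

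Foxo4 (chrX:100298134-100304480), a FOXO factor that AKT also phosphorylates, had the narrowest spread of the 10 genes over the 20 libraries (SD 0.17 on the log2 scale, against 0.48 for Foxo1 and 0.36 for Foxo3). Under PLA Ab it was at 205, 226, 182, 221 and 237 CPM in control limbs and at 189.6, 182, 181, 195 and 148 CPM in ACLT limbs. Under GDF8 Ab it was at 201, 199, 155, 176 and 195 CPM in control limbs and at 205, 198, 169, 205 and 209.7 CPM in ACLT limbs. The ACLT limb was the lower in 5 of 5 PLA Ab mice and the higher in 4 of 5 GDF8 Ab mice, and the groups overlapped. Under PLA Ab the control limbs averaged 214 ± 21.3 CPM and the ACLT limbs 179 ± 18.4 CPM (SD, n = 5 each), a log2 fold change of -0.26 (SE 0.10, 95% interval -0.46 to -0.06, adjusted p = 0.0607, and 0.0256 with the mouse block).

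The call for Foxo4 without the block was also reached on leaving out PLA Ab control library 3 (adjusted p = 0.0409) or PLA Ab ACLT library 1 (adjusted p = 0.0405). Relative to the muscle markers the log2 fold change was -0.07 (adjusted p = 0.721), with median-of-ratios scaling it was -0.41 (adjusted p = 0.017), and among the 14 libraries without Y-linked expression -0.39 (adjusted p = 0.00712). Those 14 keep only libraries 2, 4 and 5 of PLA Ab ACLT. Without PLA Ab ACLT libraries 4 and 5 the log2 fold change was -0.21 (adjusted p = 0.31). Under GDF8 Ab it was 0.10 (95% interval -0.10 to 0.30). Between antibodies in ACLT limbs it was 0.14 (95% interval -0.06 to 0.34, adjusted p = 0.284), where 4 of 5 libraries under GDF8 Ab exceeded all 5 under PLA Ab, and it turned to -0.13 relative to the muscle markers. The interaction of antibody and injury was 0.35 for Foxo4 (95% interval 0.07 to 0.63, limma adjusted p = 0.403). It was called among the 14 libraries without Y-linked expression alone (0.48, adjusted p = 0.0262), where 1329 of all tested genes were called. In control limbs GDF8 Ab lay below PLA Ab by a log2 difference of -0.21 (95% interval -0.41 to -0.01, adjusted p = 0.593).

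Klf15 (chr6:90439558-90452221) encodes a Krüppel-like factor that the glucocorticoid receptor induces and that turns on branched-chain amino acid catabolism. Under PLA Ab it was at 26.6, 46.4, 36.0, 44.1 and 53.4 CPM in control limbs and at 21.8, 35.04, 35.2, 27.3 and 27.1 CPM in ACLT limbs. Under GDF8 Ab it was at 42.6, 63.8, 29.7, 46.3 and 52.2 CPM in control limbs and at 48.0, 63.8, 30.5, 50.5 and 42.5 CPM in ACLT limbs. The ACLT limb was the lower in 5 of 5 PLA Ab mice and in 1 of 5 GDF8 Ab mice. In ACLT limbs, 4 of 5 GDF8 Ab libraries lay above all 5 PLA Ab libraries, with GDF8 Ab ACLT library 3 among them. The log2 fold change after ACLT under PLA Ab was -0.47 (SE 0.21, 95% interval -0.91 to -0.02, adjusted p = 0.122, and 0.0469 with the mouse block). It was -0.29 relative to the muscle markers (adjusted p = 0.394), -0.61 with median-of-ratios scaling (adjusted p = 0.0428) and -0.67 among the 14 libraries without Y-linked expression (adjusted p = 0.00614). Those 14 keep only libraries 2, 4 and 5 of PLA Ab ACLT. Without PLA Ab ACLT libraries 4 and 5 the log2 fold change was -0.41 (adjusted p = 0.487).

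In ACLT limbs Klf15 averaged 47.1 ± 12.1 CPM under GDF8 Ab and 29.3 ± 5.77 CPM under PLA Ab (SD, n = 5 each), a log2 difference of 0.65 (SE 0.21, 95% interval 0.202 to 1.096, adjusted p = 0.056). Relative to the muscle markers it was 0.38 (adjusted p = 0.175), and with median-of-ratios scaling 0.80 (adjusted p = 0.0415). Without both limbs of GDF8 Ab mouse 2 it was 0.53 (adjusted p = 0.115), while without PLA Ab ACLT library 3 (adjusted p = 0.0281) or GDF8 Ab ACLT library 3 (adjusted p = 0.0481) it was called. Among the 14 libraries without Y-linked expression it was 0.76 (adjusted p = 0.00193), and without PLA Ab ACLT libraries 4 and 5 it was 0.59 (adjusted p = 0.581). In control limbs the difference was 0.18 (95% interval -0.27 to 0.62), and the interaction was 0.47 (95% interval -0.16 to 1.11, adjusted p = 0.508).

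Gadd45a (chr6:67012080-67014442), a stress gene that ATF4 induces in fasted mouse muscle, was at 21.0, 38.7, 19.6, 20.8 and 28.4 CPM in PLA Ab control limbs and at 31.6, 37.6, 22.2, 42.3 and 52.8 CPM in PLA Ab ACLT limbs. It was at 33.95, 42.3, 21.6, 32.9 and 32.6 CPM in GDF8 Ab control limbs and at 23.7, 45.7, 22.9, 46.8 and 36.4 CPM in GDF8 Ab ACLT limbs. The ACLT limb was the higher in 4 of 5 mice under each antibody, and all groups overlapped. Its log2 fold change under PLA Ab was 0.51 (SE 0.25, 95% interval -0.01 to 1.03, adjusted p = 0.141), the largest value among the 10 genes, and 0.25 without PLA Ab ACLT libraries 4 and 5. Leaving out PLA Ab ACLT library 3 gave 0.68 (adjusted p = 0.0399). Under GDF8 Ab it was 0.07 (95% interval -0.45 to 0.59), and the interaction was -0.44 (95% interval -1.18 to 0.29, adjusted p = 0.584).

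**Figure D2:**
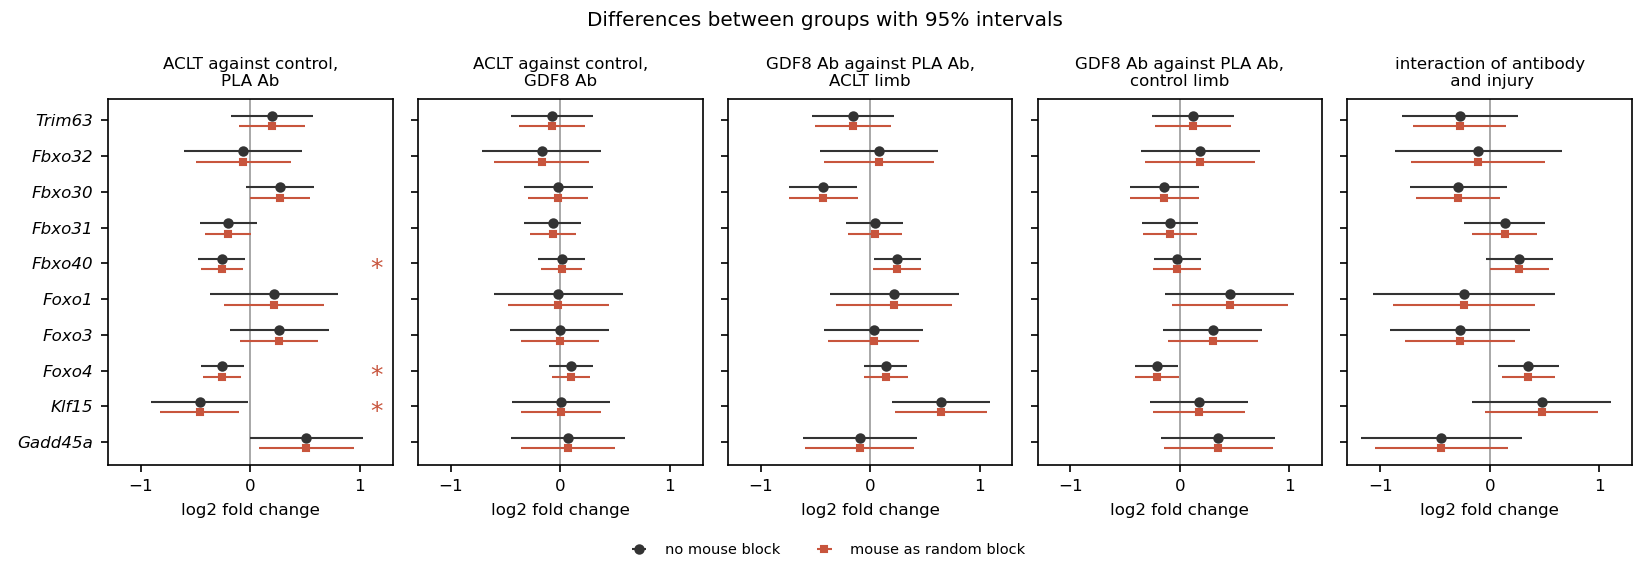
Log2 fold changes of the 10 genes in the 5 comparisons with 95% intervals, without a mouse block (black circles) and with the mouse block (red squares), with an asterisk for adjusted p under 0.05 with the block. The 3 asterisks mark Fbxo40, Foxo4 and Klf15 after ACLT under PLA Ab, and under GDF8 Ab all intervals for injury include 0.

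For several of the genes the limbs of a mouse lay close together. Over the 10 mice, the deviations of the control and the ACLT limb from their group means correlated at r = 0.91 for Foxo3 (Spearman's rho = 0.89), 0.94 for Foxo1 (rho = 0.79), 0.81 for Trim63 (rho = 0.68), 0.78 for Fbxo32 (rho = 0.83) and 0.78 for Fbxo31 (rho = 0.67), while the median over all tested genes was 0.30. The exact permutation p, shuffling mice within each antibody (14400 arrangements, two-sided), was 0.000625 for Foxo3 by r and 0.00215 by rho, 0.00514 and 0.0126 for Foxo1, 0.00757 and 0.0488 for Trim63, 0.0151 and 0.00514 for Fbxo32, and 0.0142 and 0.0444 for Fbxo31. Adjusted over all 7937 genes no gene passed, and the lowest adjusted p, that of Foxo3 among others, was 0.131 (1001 genes had an unadjusted p under 0.05). Without the 2 mice farthest from the median, r was 0.84 for Foxo3, 0.60 for Foxo1, 0.42 for Trim63, 0.76 for Fbxo32 and 0.61 for Fbxo31. Klf15 (r = 0.70, exact permutation p = 0.0391, rho = 0.48, p = 0.200) fell to 0.08 without those 2 mice, so its relation rested on them. Gadd45a (r = 0.56, rho = 0.55), Fbxo30 (r = 0.20, rho = 0.41), Foxo4 (r = 0.14, rho = -0.15) and Fbxo40 (r = 0.06, rho = -0.09) completed the 10 relations computed, with exact permutation p of 0.122, 0.589, 0.773 and 0.84 by r.

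**Figure D3:**
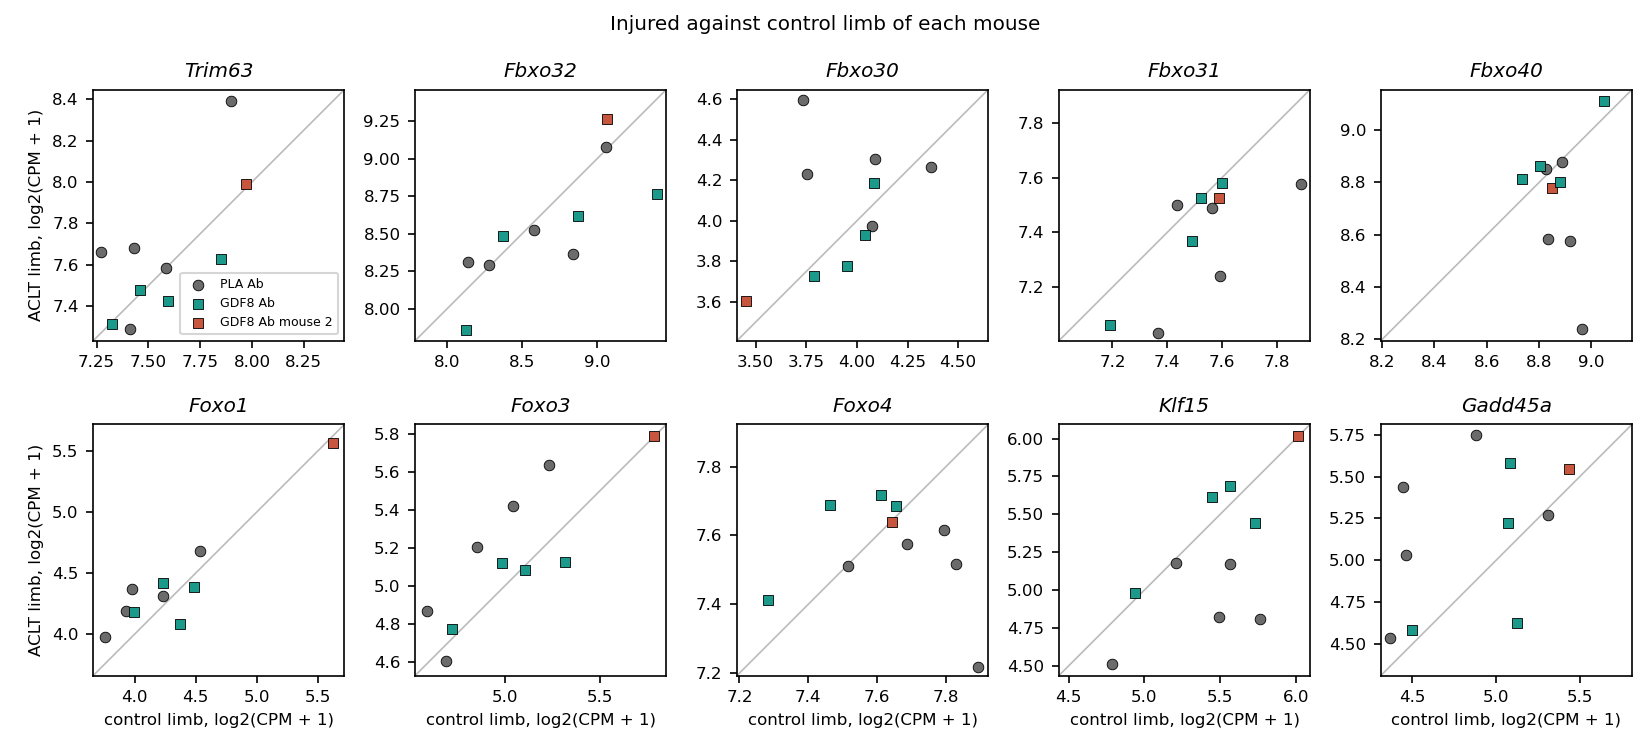
Log2(CPM + 1) of each gene in the ACLT limb against the control limb of the same mouse, for 5 PLA Ab mice (grey circles) and 5 GDF8 Ab mice (green squares, mouse 2 in red), with the line of equal levels. Foxo1 and Foxo3 lie along the line, and mouse 2 sits far up it, whereas for Fbxo40 the PLA Ab mice 2, 4 and 5 lie farthest below it.

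GDF8 Ab mouse 2 had the highest level of its group in both limbs for 4 of the 10 genes (Trim63, Foxo1, Foxo3 and Klf15), and for 10.3% of all tested genes. It had the lowest Fbxo30 in both limbs (9.95 and 11.2 CPM), and its Gadd45a (42.3 and 45.7 CPM) and Fbxo32 (537 and 616 CPM) were the highest in 1 limb each. This mouse was singled out after its values were seen, so no test is given. Of the related lists, described further on, 7 of 12 glucocorticoid receptor and responsive genes, 5 of 10 denervation and disuse genes, 2 of 7 GADD45 and ATF4 genes and 6 of 24 FOXO target genes were also the highest of their group in both limbs of this mouse. In the other lists it was 3 of 23 E3 ligase and adaptor genes, 3 of 18 ubiquitin, E1 and E2 genes, 3 of 19 genes upstream of FOXO and 1 of 8 KLF15 targets. The lowest in both limbs were 4 of the 23 E3 genes and 2 of the 8 KLF15 targets, against 7.91% of all tested genes. The glucocorticoid genes included the chaperone gene Fkbp5 (85.6 and 77.7 CPM, against 22.7 to 45.01 CPM in the other GDF8 Ab libraries) and Pik3r1, a phosphoinositide 3-kinase subunit gene (135 and 123 CPM, against 28.8 to 58.1 CPM). Muscle marker sums in this mouse (207596 and 218190 CPM) were the highest of each GDF8 Ab group.

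The 6 libraries with Y-linked expression, from 3 mice, differed from the other 14 in several of these genes. Foxo3 lay at 23.1 to 28.2 CPM (median 25.1) in them and at 27.99 to 54.4 CPM (median 34.9) in the others, the ranges overlapping between 27.99 and 28.2 CPM. In a fit with group, Y-linked expression and the mouse block, added after seeing the data, 4 of the 10 genes were called, all lower in libraries with Y-linked expression, where 10.5% of tested genes were called and 7.91% were called lower. The log2 differences were -0.54 for Foxo3 (SE 0.12, adjusted p = 0.00988), -0.62 for Gadd45a (SE 0.15, adjusted p = 0.0132), -0.50 for Klf15 (SE 0.13, adjusted p = 0.0213) and -0.29 for Fbxo31 (SE 0.07, adjusted p = 0.0187). Fbxo32 differed the other way by 0.49 (SE 0.18, adjusted p = 0.0799), with a median of 495 CPM against 343 CPM. The groups were not balanced in this respect, with 2 of 5 PLA Ab mice and 1 of 5 GDF8 Ab mice. What else these 3 mice share was not tested.

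The other genes of the pathways were counted in lists, read against the same comparisons and the shares of all tested genes given above. Most of their calls were lost without PLA Ab ACLT libraries 4 and 5, some with a smaller fold change (Akt1, Ctsl and Nedd4) and some at about the same one. The latter included Pik3cb (0.33), Prkaa2 (-0.25) and Ube2g1 (-0.20) after ACLT under PLA Ab, and Bcl6 (0.53) between antibodies in ACLT limbs. Without these libraries, 1 gene of the list upstream of FOXO and 3 denervation genes remained called after ACLT under PLA Ab, and no gene of the 8 lists was called between antibodies in ACLT limbs. The libraries left out had the highest macrophage and fibroblast marker sums, and only libraries 1, 2 and 3 of the group remain. The loss of calls therefore cannot tell a smaller response from fewer libraries. Of 23 tested E3 ligase and adaptor genes beyond the 10, 2 rose after ACLT under PLA Ab, Ube4b, an E4 chain-elongating ligase (51.7 ± 16.7 against 35.3 ± 2.97 CPM, SD, n = 5 each, log2 fold change 0.49, adjusted p = 0.0217), and Nedd4, a HECT ligase (0.41, adjusted p = 0.0237). None fell. With the mouse block 3 rose and 1 fell. In ACLT limbs Cul1, the SCF scaffold, was lower under GDF8 Ab (-0.27, adjusted p = 0.0445), below every PLA Ab library in 5 of 5, a call lost with the mouse block. Of 18 ubiquitin, E1 and E2 genes, Ube2j1, the E2 of the endoplasmic reticulum, rose (0.37, adjusted p = 0.0381) and Ube2g1 fell (-0.23, adjusted p = 0.0202) after ACLT under PLA Ab, and with the mouse block 3 rose and 2 fell.

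Of 24 FOXO target genes, 3 rose after ACLT under PLA Ab and none fell: the cell cycle inhibitor Cdkn1a (87.9 ± 65.4 against 18.9 ± 3.84 CPM, SD, n = 5 each, 1.78, adjusted p = 0.0342), the lysosomal protease Ctsl (0.82, adjusted p = 0.037) and the translation repressor Eif4ebp1 (0.51, adjusted p = 0.0297). Their list median of 0.02 lay below that of all tested genes (0.12), and the autophagy genes of the list were not called. With the mouse block 3 rose and 3 fell. Macrophages and fibroblasts also express Cdkn1a and Ctsl, whose rise ran beside the marker sums given above, and the part of other cells in it was not tested. In ACLT limbs the repressor gene Bcl6 was higher under GDF8 Ab (97.8 ± 18.5 against 66.6 ± 6.43 CPM, SD, n = 5 each, 0.53, adjusted p = 0.0432). Its difference was not limited to injured limbs: in control limbs it was 0.62, though not called (95.7 ± 16.2 against 61.4 ± 8.20 CPM, adjusted p = 0.199).

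Upstream of FOXO, 4 of 19 genes rose and 1 fell after ACLT under PLA Ab. Ywhaz, a 14-3-3 protein that holds FOXO factors in the cytoplasm (1.11, adjusted p = 0.00622), Akt1 (0.84, adjusted p = 0.023), Igf1r (0.55, adjusted p = 0.0356) and the kinase subunit gene Pik3cb (0.35, adjusted p = 0.0317) rose, and Prkaa2, a catalytic subunit gene of AMP kinase, fell (-0.27, adjusted p = 0.0137). Without PLA Ab ACLT libraries 4 and 5 Ywhaz was at 0.60 (adjusted p = 0.0215) and Akt1 at 0.34 (adjusted p = 0.319). In ACLT limbs Ywhaz (-0.88, adjusted p = 0.0455) and Igf1r (-0.61, adjusted p = 0.0471) were lower under GDF8 Ab than under PLA Ab, and with the mouse block neither was called. Of 12 glucocorticoid receptor and responsive genes only the metallothionein gene Mt2 rose after ACLT under PLA Ab (46.2 ± 64.3 against 3.61 ± 1.13 CPM, SD, n = 5 each, 2.56, adjusted p = 0.0105). Zbtb16, a transcriptional repressor induced by glucocorticoids, gave 0.71 for GDF8 Ab against PLA Ab in ACLT limbs (adjusted p = 0.0545).

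Of 8 tested KLF15 metabolic targets none was called in any comparison. All 8 had log2 fold changes below 0 after ACLT under PLA Ab, and all 8 lay above 0 for GDF8 Ab against PLA Ab in ACLT limbs, comparisons that share the PLA Ab ACLT libraries. Without libraries 4 and 5 of that group Bcat2 turned to 0.06 and Gpt to 0.04 in the first, and Slc2a4 to -0.05 and Acsl1 to -0.06 in the second. The medians of the 8 targets in these comparisons were -0.26 and 0.25, against 0.12 and -0.14 over all tested genes. Those of the 15 skeletal muscle fibre markers were similar, at -0.23 and 0.30. Whether the targets moved apart from other muscle genes was not tested. The 2 smallest p values after ACLT under PLA Ab were those of the glucose transporter gene Slc2a4 (-0.34, adjusted p = 0.0648) and of Bckdk, the kinase of branched-chain ketoacid dehydrogenase (-0.23, adjusted p = 0.0649), both called lower with the mouse block (adjusted p = 0.0279 and 0.0326). Of 7 tested GADD45 family and ATF4 stress genes, Eif4ebp1 alone rose after ACLT under PLA Ab, as above. Gadd45g was at 0.79 for GDF8 Ab against PLA Ab in ACLT limbs (adjusted p = 0.144), and Gadd45b was at -0.69 in control limbs, below every PLA Ab library in 5 of 5 (adjusted p = 0.306).

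Genes of denervation and disuse had the largest list median (0.81, against 0.12 over all tested genes, after ACLT under PLA Ab). Of 10 tested, 5 rose after ACLT under PLA Ab, among them the myogenic factor gene Myog (60.7 ± 51.9 against 4.68 ± 1.48 CPM, SD, n = 5 each, 2.97, adjusted p = 0.0028), the acetylcholine receptor gene Chrna1 (2.50, adjusted p = 0.00256) and the adhesion gene Ncam1 (2.47, adjusted p = 0.00459), each above every control library in 5 of 5. Without PLA Ab ACLT libraries 4 and 5 these 3 were at 2.06, 1.65 and 1.49 (adjusted p = 0.0254, 0.0128 and 0.0285). The 6 satellite cell markers, all detected in each group, summed to 39.7, 67.1, 38.2, 92.9 and 125 CPM in PLA Ab ACLT limbs, against 28.3 to 45.7 CPM in PLA Ab control limbs and 28.8 to 45.6 CPM in the GDF8 Ab limbs. Their part in the rise of the denervation genes was not tested. In ACLT limbs 4 were lower under GDF8 Ab, with Myog at -2.54 (adjusted p = 0.0354). No gene of the 8 lists was called between the limbs of GDF8 Ab mice, between antibodies in control limbs, or for the interaction, where the smallest p of the denervation list gave Chrna1 at -2.09 (adjusted p = 0.403). Between the limbs of GDF8 Ab mice only 0.0252% of all tested genes were called. There the denervation list median was 0.41, against 0.04 over all tested genes, and 9 of 10 genes lay above 0. The 2 smallest p values were those of Ankrd1 (1.25, against 1.09 under PLA Ab) and Chrnb1 (0.40).

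**Figure D4:**
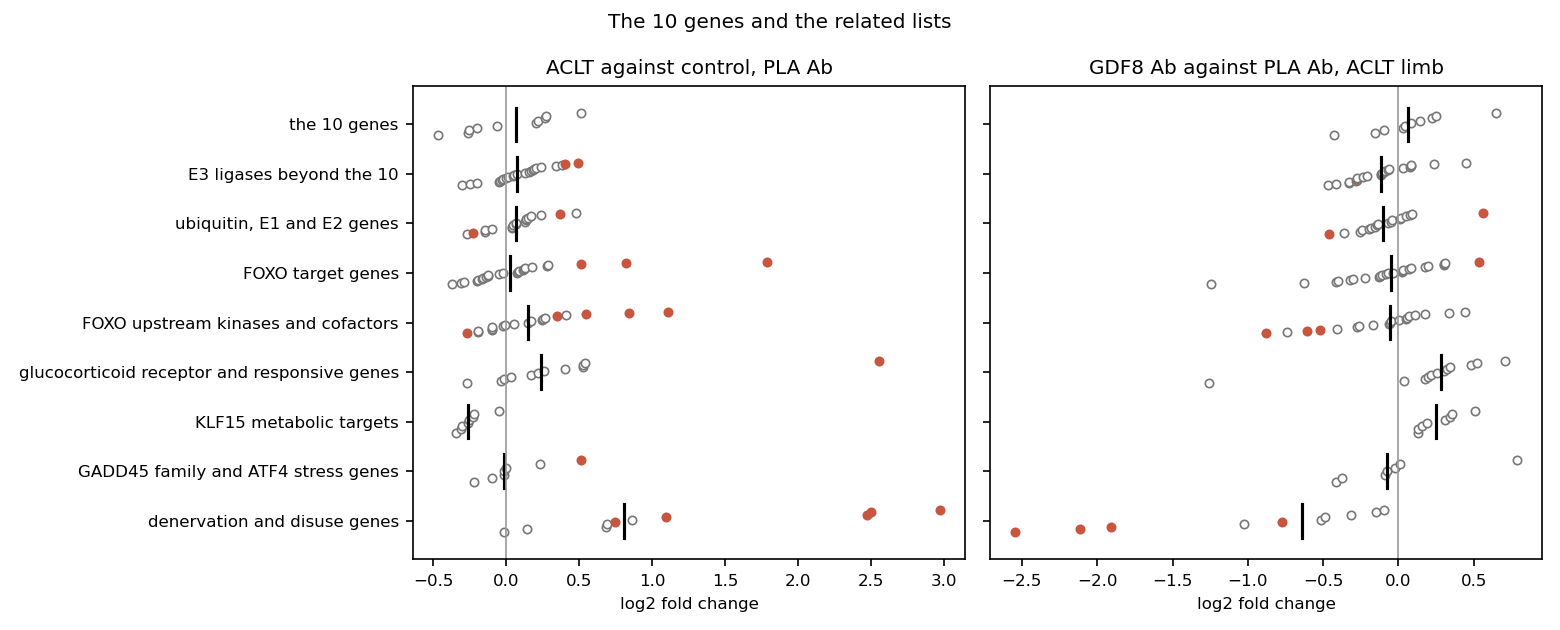
Log2 fold changes of the 10 genes and of the tested genes of the 8 related lists after ACLT under PLA Ab (left) and for GDF8 Ab against PLA Ab in ACLT limbs (right), filled where adjusted p was under 0.05, with black bars at each list's median. The 10 genes hold no filled point, and denervation genes reach 2.97 on the left and -2.54 on the right.

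The 10 genes varied in different ways over the 20 libraries. Their deviations from the group means correlated most for Foxo1 and Foxo3 (r = 0.82), Fbxo31 and Klf15 (r = 0.74) and Foxo3 and Klf15 (r = 0.71), and ran oppositely for Fbxo30 and Foxo4 (r = -0.70) and for Fbxo30 and Klf15 (r = -0.54). The correlation of Trim63 and Fbxo32 was 0.27. These are descriptions over libraries that share mice and groups. Among all tested genes, those most like Foxo1 by Pearson's r of log2(CPM + 1) were Pik3r1 (0.92), Wbp1l (0.91) and Foxo3 (0.83), and those most like Foxo3 were Pik3r1 (0.87), Max (0.87) and Med26 (0.87). Trim63 was most like Ccdc71l (0.85), Zcchc24 (0.76) and Hsp90ab1 (0.76), and Fbxo32 like Ston2 (0.74), Ypel2 (0.74) and Zhx2 (0.72). For Fbxo40 they were Dusp8 (0.94), Ndrg2 (0.93) and Ecsit (0.92), for Foxo4 Mapk12 (0.90), Jsrp1 (0.89) and 2310002L09Rik (0.89), and for Klf15 Tmem52 (0.87), Bckdhb (0.87), a branched-chain ketoacid dehydrogenase subunit gene, and Pitpnc1 (0.87). For Gadd45a they were Mybph (0.88), Ftsj3 (0.87) and Obsl1 (0.87), for Fbxo30 Vasp (0.87), Mapk6 (0.87) and Tnrc18 (0.86), and for Fbxo31 Zfp180 (0.85), Tab2 (0.85) and Ubl3 (0.85).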

How the data were processed

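Quadriceps RNA of 20 libraries was sequenced, and the deposited values are CPM (a library total of 1e+06 over 17415 genes) that the authors made. Their processing notes name STAR 2.7.3a and Partek among other tools, and the builds mm10 and mm39 with no role given. Gene coordinates are printed as deposited, and none of the 10 starts matches its GRCm38 position, so promoter coordinates are on another build. CPM divides by the library total, so a rise of abundant genes lowers all others. Whole reads could not be recovered, so no count test was run.

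The 10 genes and the lists were chosen with earlier results of these data known. Libraries were grouped by their labels. The 7937 genes that reached 10 CPM in 5 or more libraries were tested with limma 3.58.1 in R 4.3.3 on log2(CPM + 1), fitting the 4 groups together with a trend of variance on level, and p was adjusted by Benjamini-Hochberg. By the smallest step between values, each library held 15.6 to 24.2 times 1e+06 reads. The tests were checked on simulated data with independent normal noise, the same spread in all 4 groups and no correlation of limbs. That check does not cover unequal spreads or correlated limbs. Named list genes were the called ones with the largest changes, at most 4 a list and comparison, or else the 2 with the smallest p (some are not reported here); those chosen for their likeness were the 3 with the highest r. Limbs of the same number and antibody were taken as 1 mouse: the study's design uses the opposite limb as control, Y-linked expression matched in 10 of 10 sets, and deviations from group means correlated above 0.1 in 9 of 10 (0.0387 to 0.625). The labels do not state this, and the correlation used for the block was 0.253. Alternatives were another pseudocount, filter or scaling, array weights, no trend, only the 2 groups compared, the mouse block and left-out libraries. The fits without GDF8 Ab mouse 2, with a term for Y-linked expression, and of the block without PLA Ab mice were chosen after seeing the data. The fit without PLA Ab ACLT libraries 4 and 5 leaves out libraries that stand apart in these same data, so it is not a check blind to them. P-values of the main fit rest on a gene's spread between libraries within groups, pooled over the 4 groups and moderated across genes. They do not use the spread of a single group. Fitting only the 2 groups compared took the calls after ACLT under PLA Ab from 1603 to 16.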

Additional observations from a re-analysis of the deposited data

Results flagged for a closer look

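In 7 of 40 groups of 5 values 1 library stood apart from the rest of its group, its gap to the nearest library exceeding 0.71 of the group's range (Dixon's limit, which chance passes in about 1 of 20 groups). Trim63 was at 335 CPM in PLA Ab ACLT library 5. Fbxo32 was at 539.7 CPM in PLA Ab ACLT library 3. Fbxo40 was at 552 CPM in GDF8 Ab ACLT library 1. Foxo4 was low, at 169 CPM, in GDF8 Ab ACLT library 3. The other 3 belonged to GDF8 Ab mouse 2, with Foxo1 at 48.4 CPM in the control and 46.4 CPM in the ACLT limb, and Foxo3 at 54.4 CPM in the ACLT limb.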

How the results depend on the processing

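Of 1800 values of the 10 genes under an alternative, 1663 kept their sign and their side of the threshold, 52 passed it and 85 changed sign, none of those with an adjusted p under 0.05. The causes were not tested. After ACLT under PLA Ab the number of the 10 genes called was 0 in the main test, 1 with a filter of 1 CPM, without a filter or with array weights, 3 with the mouse as a random block, 4 with median-of-ratios scaling or in libraries without Y-linked expression, 3 with a term for Y-linked expression and 4 with that term and the block. It was 0 to 2 on leaving out 1 library, and with the block 4, 1, 4, 0 and 0 without PLA Ab mouse 1 to 5, counting Fbxo30 without mouse 1 (0.36) and Gadd45a without mouse 2 (0.65) or 3 (0.60). Between antibodies in ACLT limbs it was 1 with the lower or no filter, median-of-ratios scaling or the Y-linked term with the block, 2 with array weights or the Y-linked term, 3 in libraries without Y-linked expression, and 0 to 2 on leaving out 1 library. For the interaction 1 was called in libraries without Y-linked expression. In that setting 3622 of all 7937 tested genes were called between antibodies in ACLT limbs, and 1329 for the interaction. Under GDF8 Ab and in control limbs none was called in any setting. Added to the main test, the block changed no other call of the 10 genes. With the term for Y-linked expression, Fbxo30 between antibodies in ACLT limbs was called only without the block (adjusted p = 0.049). Fbxo40 after ACLT under PLA Ab was called only with that term and the block together (adjusted p = 0.044), and not with the term alone. Calls over all tested genes ranged from 16 (only the 2 groups) to 4837 (no filter) after ACLT under PLA Ab (main 1603), 0 to 3622 between antibodies in ACLT limbs (main 532), 0 to 10 under GDF8 Ab (main 2), 0 to 64 in control limbs (main 0) and 0 to 1329 for the interaction (main 0). After ACLT under PLA Ab 31.9% of tested genes were called with the mouse block. That share is not given for each other setting, the libraries without Y-linked expression included. The counts of the 10 genes called are therefore not read as particular to them. Median-of-ratios scaling moved the median of all genes after ACLT under PLA Ab to -0.03 (1196 called up and 740 down) and muscle marker scaling to 0.30 (708 and 0). Fitting only the 2 groups gives no interaction.

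Signs changed in these log2 values. After ACLT under PLA Ab, Trim63 was -0.14 with array weights and -0.0026 without PLA Ab ACLT libraries 4 and 5, and Fbxo32 was 0.12 with muscle marker scaling, 0.077 without those libraries, 0.042 without Y-linked expression and 0.035 with the block without PLA Ab mouse 1. After ACLT under GDF8 Ab, array weights gave Fbxo40 -0.0046 and Klf15 -0.021, median-of-ratios scaling Fbxo40 -0.034 and Klf15 -0.037, and muscle marker scaling Fbxo30 0.0042, Foxo1 0.0041 and Foxo3 0.015. In ACLT limbs, array weights gave Trim63 0.15 and Fbxo32 -0.070, median-of-ratios scaling Trim63 0.00041 and Gadd45a 0.059, leaving out PLA Ab ACLT libraries 4 and 5 Trim63 0.049, Fbxo32 -0.060 and Gadd45a 0.17, leaving out GDF8 Ab mouse 2 Fbxo32 -0.085, Foxo1 -0.039 and Foxo3 -0.12, the term for Y-linked expression, with or without the block, Fbxo31 -0.015 and Foxo3 -0.077, libraries without Y-linked expression Foxo3 -0.14, and muscle marker scaling Fbxo32 -0.19, Fbxo31 -0.23, Fbxo40 -0.025, Foxo1 -0.043, Foxo3 -0.24 and Foxo4 -0.13. In control limbs Fbxo40 was 0.026 with median-of-ratios scaling. For the interaction, Trim63 was 0.11 with array weights, Fbxo32 0.00045 with median-of-ratios scaling and Fbxo31 -0.025 with muscle marker scaling.

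Leaving out 1 library in turn, values changed sign over these ranges. After ACLT under PLA Ab, the range was Fbxo32 from -0.21 to 0.055. After ACLT under GDF8 Ab, the range was Trim63 from -0.18 to 0.0099, Fbxo32 from -0.34 to 0.015, Fbxo30 from -0.12 to 0.042, Fbxo31 from -0.14 to 0.021, Fbxo40 from -0.047 to 0.058, Foxo1 from -0.28 to 0.25, Foxo3 from -0.16 to 0.15, Klf15 from -0.14 to 0.15 and Gadd45a from -0.068 to 0.20. Between antibodies in ACLT limbs, the range was Trim63 from -0.26 to 0.014, Fbxo32 from -0.085 to 0.27, Fbxo31 from -0.040 to 0.13, Foxo1 from -0.039 to 0.33, Foxo3 from -0.12 to 0.15 and Gadd45a from -0.26 to 0.044. In control limbs, the range was Fbxo40 from -0.070 to 0.0085. For the interaction, the range was Fbxo32 from -0.27 to 0.081 and Foxo1 from -0.49 to 0.038.

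A floor of 3 reads was 0.124 to 0.192 CPM, and the fewest reads behind a value of the 10 genes, 195 for Fbxo30, give a counting error of 7.16%. The coefficient of variation of Fbxo30 between the libraries of a group was 16.5% to 19.7%.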
